A study of Mus musculus with 14 samples.

Results

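JAK kinases and STAT factors carry cytokine signals from the cell surface to the nucleus, and the 9 genes described here were Jak1, Jak2, Jak3, Stat2, Stat3, Stat4, Stat5a, Stat5b and Stat6. The data described are accessible windows, short genome intervals in which ATAC-seq reads were counted, and a window belonged to a gene if that gene had the nearest protein-coding start site to the window's centre within 100 kb. The rule used only position, on build GRCm38, and took 250 of the 240778 windows, which is 0.104% of them. The JAK genes held 143 windows and the STAT genes 107.

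Treg cells sorted from spleen and lymph nodes of adult mice were profiled in bulk by ATAC-seq, in which a transposase cuts open chromatin, to ask what acute loss of the Foxp3 protein changes. All 14 mice carried Foxp3AID, an allele whose Foxp3 protein bears an auxin-inducible degron and that also makes ZsGreen and Cre, and all received 5-ph-IAA, the auxin analog. R26TIR1(F74G) mice also carried TIR1, the plant ligase adaptor that recognises the degron, with mCherry, behind a loxP-flanked stop, whereas R26WT controls had no TIR1. There were 4 mice of each genotype on day 3 and 3 of each on day 7. TIR1 is thus made only where the Cre of the Foxp3 locus has acted, and the methods describe TIR1 cells sorted as ZsGreen+ mCherry+ and control cells as ZsGreen+, so the gates differed between genotypes. The labels give neither an activation state nor an age in weeks, whereas the study describes its bulk accessibility work on resting and activated Treg cells of mice heterozygous for Foxp3AID, so which cells a sample holds is not settled here. Each sample was labelled as a separate replicate mouse.

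The cytokine receptors that signal through JAK kinases have no kinase domain of their own and use JAKs bound to their chains. A receptor that has met its cytokine lets the JAKs phosphorylate each other and the receptor, STAT proteins dock there and are phosphorylated, and STAT dimers enter the nucleus and bind DNA. In Treg cells IL-2 signals through Jak1 and Jak3 to Stat5a and Stat5b, a route known to sustain Foxp3 expression and Treg survival, while Stat3, Stat4, Stat6 and Stat2 are best known for responses to IL-6 and IL-10, IL-12, IL-4 and type I interferon.

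Total counts ran from 5653289 to 20184487 per library, with the smallest totals in day 3 R26TIR1(F74G) replicate 1 and in day 7 R26WT replicate 3 (6348754). Replicates of a group differed by more than counting noise in all 18 pairs, with chi-square between 1.62 and 2.46 per degree of freedom. Of 8 markers of Treg and CD4 T cells 6 had a window at their start, with a median of 14.2 CPM (a window's reads as a share of all counted reads of the library, in parts per 1000000, with TMM scaling), and Foxp3 and Tnfrsf18 had none. Of 5 B cell markers only Ebf1 had a start window, of 5 myeloid markers 3 had one, neither NK cell marker did, and both CD8 T cell markers did. Summed over the list, the myeloid markers ranged from 9.0 to 11.7 CPM, the B cell marker from 1.6 to 5.55 CPM and the CD8 markers from 11.3 to 15.5 CPM over all mice, and their ranges overlapped between genotypes on both days. Any part of other cells in the results was not tested. In bulk samples fewer cells with an open site and a less open site per cell cannot be told apart.

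RefSeq held 12 promoters for the 9 genes on GRCm38.p6, each from 250 bases before to 50 after a start site, and 10 of them overlapped an accessible window. The 5 printed here lie under the most accessible start windows, at the second annotated Stat5a start and at the more upstream Stat5b promoter. Each is cut to 30 bases after the start. They run 5′ to 3′ on the gene's strand, and capitals mark GC boxes (GGGCGG), Runx motifs (TGTGGT) and an interferon-stimulated response element (GAAANNGAAA), on either strand.
Jak1, chr4:101265194-101265473, minus strand: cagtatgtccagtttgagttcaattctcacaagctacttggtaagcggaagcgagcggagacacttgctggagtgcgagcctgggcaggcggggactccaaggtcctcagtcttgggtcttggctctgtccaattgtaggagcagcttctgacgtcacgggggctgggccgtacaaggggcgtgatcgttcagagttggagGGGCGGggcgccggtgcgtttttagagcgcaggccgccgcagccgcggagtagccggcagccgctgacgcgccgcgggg
Stat2, chr10:128270248-128270527, plus strand: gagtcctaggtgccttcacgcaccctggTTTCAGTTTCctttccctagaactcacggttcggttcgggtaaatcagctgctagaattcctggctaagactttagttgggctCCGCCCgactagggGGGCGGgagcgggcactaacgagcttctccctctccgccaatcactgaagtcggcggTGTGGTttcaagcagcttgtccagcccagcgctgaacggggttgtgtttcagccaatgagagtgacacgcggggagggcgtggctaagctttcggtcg
Stat3, chr11:100939511-100939790, minus strand: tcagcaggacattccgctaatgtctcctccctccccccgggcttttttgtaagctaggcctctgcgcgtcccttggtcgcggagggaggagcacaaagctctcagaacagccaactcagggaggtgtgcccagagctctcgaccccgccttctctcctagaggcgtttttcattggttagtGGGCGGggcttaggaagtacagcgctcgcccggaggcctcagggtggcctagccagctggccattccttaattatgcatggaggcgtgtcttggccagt
Stat5a, chr11:100860234-100860513, plus strand: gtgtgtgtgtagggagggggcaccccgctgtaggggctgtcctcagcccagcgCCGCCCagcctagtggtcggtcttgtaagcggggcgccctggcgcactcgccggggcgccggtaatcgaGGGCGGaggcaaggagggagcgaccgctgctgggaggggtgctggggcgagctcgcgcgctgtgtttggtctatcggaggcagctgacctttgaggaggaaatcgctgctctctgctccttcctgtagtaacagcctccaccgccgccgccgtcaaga
Stat5b, chr11:100850552-100850831, minus strand: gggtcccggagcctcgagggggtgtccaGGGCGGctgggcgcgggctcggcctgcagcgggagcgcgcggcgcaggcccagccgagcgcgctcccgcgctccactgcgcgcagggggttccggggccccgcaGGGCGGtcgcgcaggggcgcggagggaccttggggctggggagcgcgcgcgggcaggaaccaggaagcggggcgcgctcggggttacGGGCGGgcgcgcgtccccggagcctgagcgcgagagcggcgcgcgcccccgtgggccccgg
The GC box, a site of general promoter factors, was in 7 of the 12 promoters and in 35.7% of all 32851 RefSeq promoters of the same length. Runx motifs were in 3 of 12 against 16.8%. The interferon element, the kind of site that complexes of Stat2 bind, was in 2 of 12, those of Stat2 and of the second Stat4 start, against 3.44% of all. That motif was added to the search after the Stat2 promoter had been read. The STAT motif TTCNNNGAA, the forkhead motif TGTTTAC, the AP-1 motif TGANTCA and the ETS motif CCGGAAG were in none of the 12, where 8.30%, 3.65%, 7.81% and 8.86% of all promoters held them. These are letter matches in short stretches, and sequence of the windows away from the starts was not used here.

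The genes differed widely in how many windows were assigned to them. The number depends on how near the starts of neighbouring genes lie, so it does not measure a gene's accessible chromatin alone. Jak1 had 84 windows, more than 99.7% of genes with any, Jak2 had 51, Stat4 31, Stat5b 22, Stat3 20, Stat5a 19, Stat6 11, Jak3 8 and Stat2 4, where the median gene had 8. Windows overlap, so the 250 formed 174 separate regions, and 124 windows shared bases and therefore reads with another. By position, 168 windows lay in their own gene, 71 outside any protein-coding gene and 11 in another gene only. Of the latter 10 were Stat5a windows inside Stat3, its neighbour on chromosome 11.
Every window had the same length of 201 bp, so CPM can be set side by side between windows. Window positions are printed as the table gives them, and whether they count from 0 or from 1 is not stated. The median member window had 2.62 CPM and the median of all windows 1.80 CPM. Within 1 kb of a start the members' median was 6.98 CPM and that of all windows 4.48 CPM, and beyond 1 kb the medians were 2.33 and 1.66 CPM. All windows assigned to Jak3 and Stat6 lay close to the start, whereas Jak1 was assigned windows from 64144 bp upstream to 97750 bp downstream. Windows nearer to another gene's start went to that gene. Stat4 and Stat5b had no window at the outermost start of the gene, the nearest lying 11616 bp and 7952 bp inside.

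**Figure D1:**
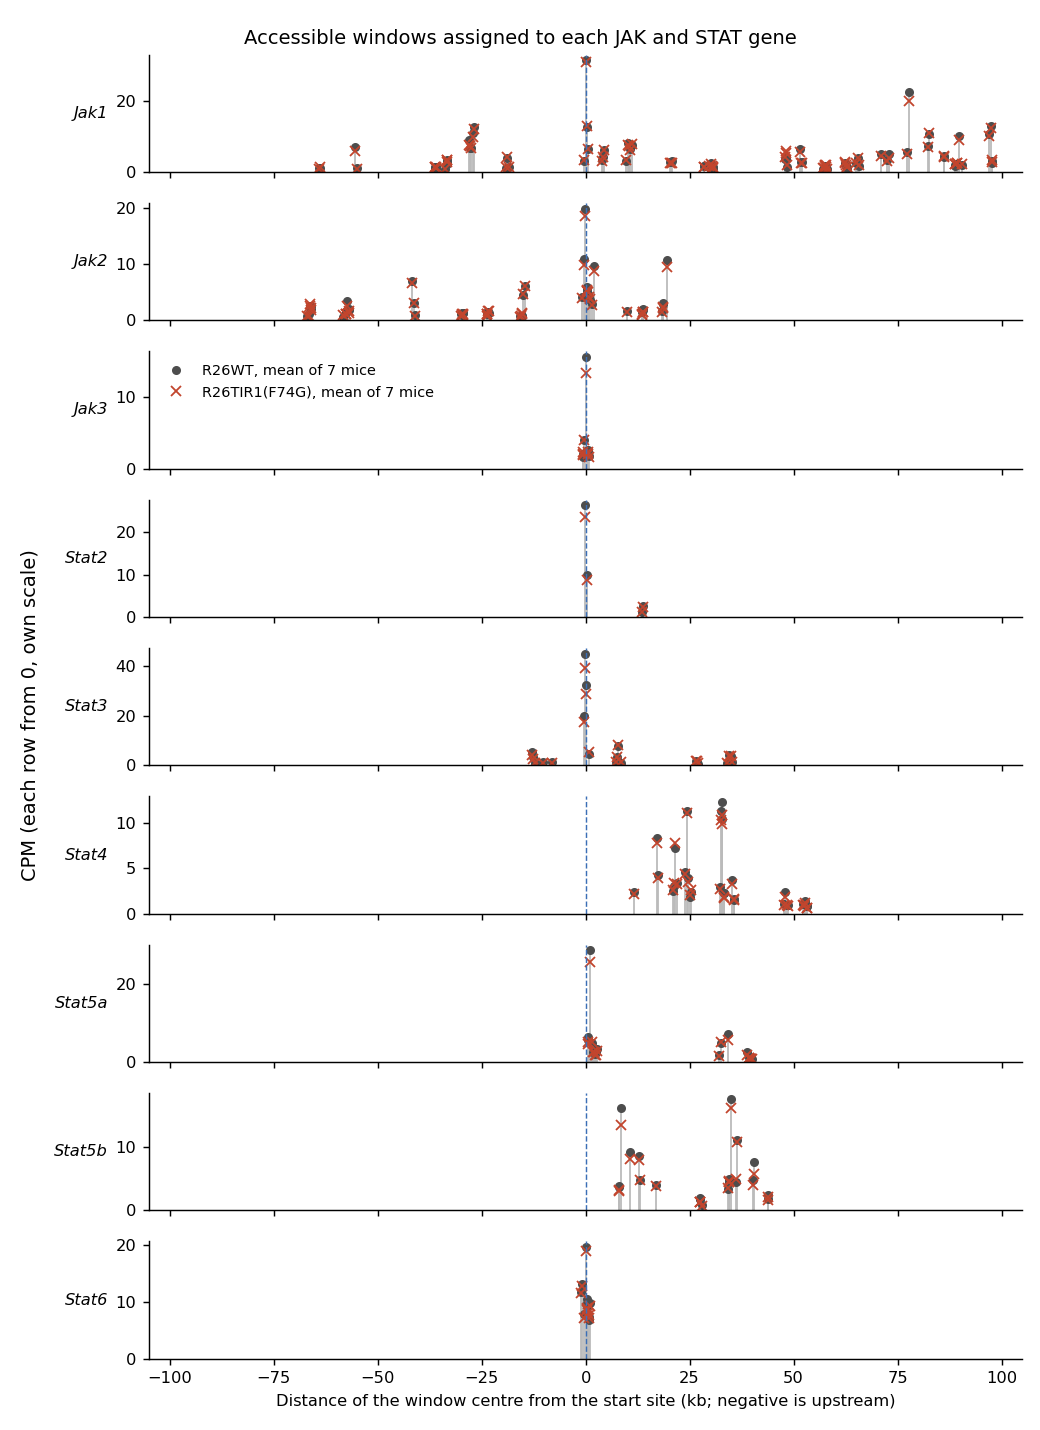
Mean CPM of each window against its distance from the gene's start site in kb, 1 row per gene with its own scale, as dots for the 7 R26WT mice and crosses for the 7 R26TIR1(F74G) mice. Dots and crosses lie close together at nearly every window, and the highest windows of 6 genes, from Stat3 at 42.3 CPM to Jak3 at 14.4 CPM, lie at the dashed start site.

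In control mice the start-site windows of 7 genes covered a wide range of accessibility. Stat3 was highest with a mean of 45.2 ± 4.08 CPM (SD, n = 7 R26WT mice), followed by Jak1 with 31.5 ± 5.01, Stat2 with 26.4 ± 3.28, Jak2 with 19.9 ± 3.23, Stat6 with 19.7 ± 2.45, Jak3 with 15.5 ± 3.09 and Stat5a with 6.56 ± 1.23 CPM. The mice of Stat3 did not overlap with those of Jak1, nor those of Jak3 with those of Stat5a, and all other neighbours in this order overlapped. The Stat5a value is that of a window 592 bp downstream of the outermost start, and the promoter of the first annotated start overlapped no window. The most accessible Stat5a window lay over the second start, at chr11:100860332-100860533, with 28.8 ± 2.99 CPM. Stat4 and Stat5b, without a start-site window, were highest inside the gene, at chr1:52019711-52019912 with 12.3 ± 1.28 CPM and at chr11:100824030-100824231 with 17.5 ± 1.21 CPM.

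The question in the comparison of genotypes is whether any of these windows opens or closes once Foxp3 is degraded. None of the 250 did so beyond the error over both days, when 7 R26TIR1(F74G) mice were compared with 7 R26WT mice with day as a term (edgeR quasi-likelihood test, adjusted p under 0.05 over all windows), beside 27 windows or 0.0112% in the whole table. The smallest adjusted p of a member was 0.322. At an unadjusted p under 0.05, 23 member windows were lower and 4 higher in R26TIR1(F74G) mice, 9.20% and 1.6% of the 250, where 3.57% of all windows were lower and 3.16% higher, and 6.98% and 2.27% of those averaging 50 reads or more. DESeq2 also called 0 of the 250, of which 203 had no adjusted p after its filter, and called 155 of all windows. At an unadjusted p under 0.05 it had 20 members and 14153 of all 240778 windows. Of the 250 windows 240 had a 95% confidence interval within a 2-fold change either way, and 150 within a 1.5-fold change.
The 12 STAT windows past the unadjusted threshold were all lower, and of the 15 JAK windows past it 11 were lower and 4 higher. The median log2 fold change over both days was −0.14 for the 107 STAT windows, with 86 below 0, and −0.05 for the 143 JAK windows, with 87 below 0, and 0.00 for all windows, of which 49.3% were below 0. Among the 66750 windows averaging 50 reads or more the median was −0.03 and 59.3% were below 0. Of that depth, 83.7% of the 49 STAT windows and 69.4% of the 49 JAK windows were below 0, with medians of −0.09 and −0.04. The median of all 107 STAT windows stayed between −0.14 and −0.10 under each other scaling or model. It stayed between −0.16 and −0.11 without any single mouse. The JAK median stayed between −0.06 and −0.01 under other settings, the latter with total counts, and was −0.08 without day 7 R26WT replicate 2 and −0.03 without day 3 R26TIR1(F74G) replicate 3 or R26WT replicate 4. That of Stat5a and Stat5b together stayed between −0.18 and −0.15 under other settings and between −0.23 and −0.14 without any single mouse. The difference between STAT and JAK windows was not tested.

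**Figure D2:**
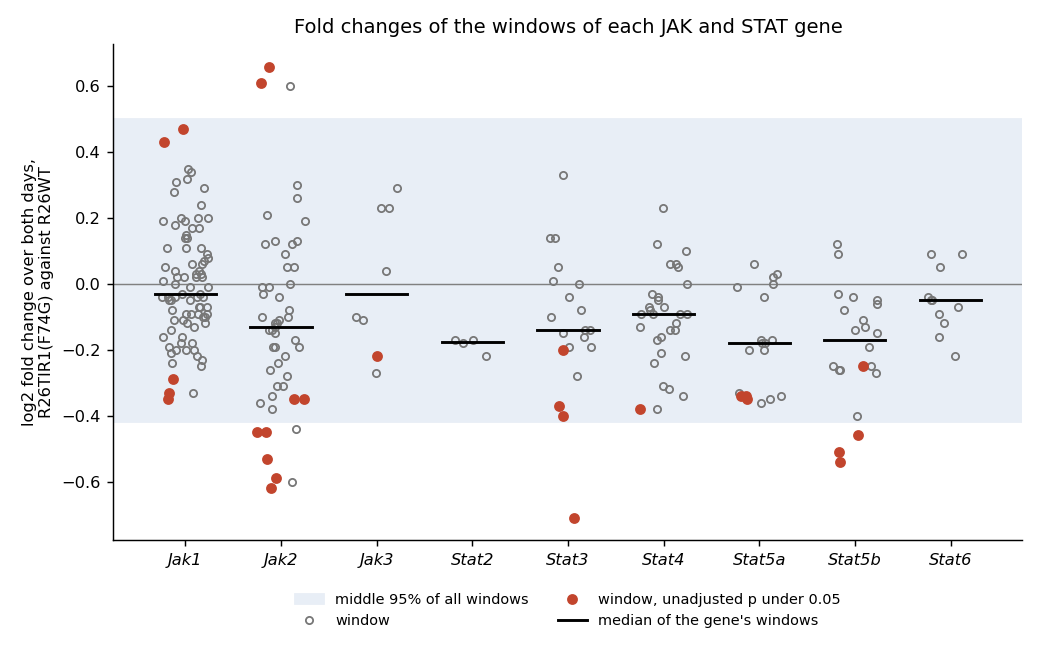
Log2 fold change over both days of every window, by gene, with filled points for an unadjusted p under 0.05, black bars for each gene's median and a band for the middle 95% of all windows. The STAT medians lie below 0, lowest for Stat2 and Stat5a at −0.18 and Stat5b at −0.17, and the filled points above 0 belong to Jak1 and Jak2.

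On day 3, with 4 against 4 mice, 246 member windows could be tested and edgeR called 0 of them, as it called 0 of all windows (0%). At an unadjusted p under 0.05, 19 were lower and 5 higher, beside 3.62% and 3.93% of all windows. The members' shares were 7.72% and 2.03%, and those of the windows averaging 50 reads or more were 8.33% lower and 1.42% higher. DESeq2 called 0 windows, members or not, and had 17 members and 11762 of all 235515 windows at that p. All 13 STAT windows past the unadjusted threshold in edgeR were lower. The median log2 fold change on day 3 was −0.13 for STAT and −0.10 for JAK windows, against 0.01 for all windows. Among windows averaging 50 reads or more it was −0.13 for STAT windows, −0.12 for JAK windows and −0.08 for all. Under other scaling or models the day 3 STAT median stayed between −0.14 and −0.08 and the JAK median between −0.10 and −0.04. The mice of the genotypes did not overlap at 10 windows that were lower and 1 that was higher on day 3, where 2.08% and 2.01% of all windows did so.
On day 7, with 3 against 3 mice, edgeR called 0 of 250 member windows, beside 0.00463% of all. DESeq2 called 0 windows, members or not. Here 9 were lower and 5 higher at an unadjusted p under 0.05, where 3.20% and 2.75% of all windows were, and DESeq2 had 6, beside 6367 of all windows. The day 7 median was −0.12 for STAT windows, 0.02 for JAK windows and −0.01 for all. Among windows averaging 50 reads or more it was −0.05 for STAT windows, 0.04 for JAK windows and 0.02 for all. Over all depths, the STAT median was −0.08 with the prefix of the mouse names in the model. Only R26TIR1(F74G) replicate 3 had prefix E on day 7, so there the term amounts to leaving out that mouse. It ran from −0.17 to −0.07 without any single mouse. It was −0.07 without R26TIR1(F74G) replicate 2 or R26WT replicate 1 and −0.08 without R26TIR1(F74G) replicate 3. The JAK median ran from 0.00 to 0.09, the latter without R26WT replicate 1. Mice of prefix E were day 3 R26TIR1(F74G) replicates 3 and 4, day 7 R26TIR1(F74G) replicate 3 and day 3 R26WT replicate 4. The other mice had prefix AC, so prefix and genotype were unevenly combined and cannot be fully told apart. What the prefixes stand for is not stated. Day 7 mice did not overlap at 17 lower and 14 higher member windows, close to the 6.04% and 5.78% of all windows. Over both days and all 14 mice the genotypes did not overlap at 2 member windows, both lower, where 0.0635% of all windows were so and 0.0527% were higher without overlap.

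By mouse, the sum of all STAT windows kept the genotypes apart on day 3 and not on day 7. In day 3 R26WT mice it was 622, 598, 608 and 648 CPM, and in day 3 R26TIR1(F74G) mice 595, 580, 479 and 547 CPM, with replicate 3 lowest. In day 7 R26WT mice it was 638, 612 and 587 CPM, and in day 7 R26TIR1(F74G) mice 614, 555 and 588 CPM, which overlap. How often sums over other sets of windows kept the genotypes apart was not counted. Reads shared by overlapping windows entered such sums more than once. The JAK sum was 549, 560, 568 and 613 CPM in R26WT and 549, 552, 502 and 523 CPM in R26TIR1(F74G) mice on day 3, and 601, 543 and 516 CPM against 555, 549 and 574 CPM on day 7. The sum over the 66750 windows averaging 50 reads or more moved with these sums only in part. On day 3 it ran from 692199 to 797016 CPM in R26WT and from 648055 to 736296 CPM in R26TIR1(F74G) mice, which overlap. Replicate 3 of the latter was lowest again. The lowest day 3 control in this sum, replicate 1 with 692199 CPM, did not have the lowest STAT sum. The part of this sum in the STAT and JAK sums was not tested.

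Among the kinases, Jak1 binds the largest set of receptors, those of the common gamma chain, gp130 and interferon families included. No difference between genotypes was called at its start. At the Jak1 start, chr4:101265164-101265365, R26WT mice had 26.4, 28.1, 33.7 and 38.6 CPM and R26TIR1(F74G) mice 35.2, 33.5, 23.3 and 26.9 CPM on day 3. Its day 7 values were 32.2, 35.9 and 25.3 CPM in R26WT and 30.8, 33.0 and 33.9 CPM in R26TIR1(F74G) mice. The groups overlapped on both days, and the log2 fold change over both days was −0.04 (95% interval −0.23 to 0.15, unadjusted p = 0.679, adjusted p = 0.973). Of the 84 Jak1 windows 5 had an unadjusted p under 0.05, 3 lower and 2 higher. The 2 higher ones overlapped each other inside the gene, and the first, chr4:101217033-101217234, had 3.64, 2.71, 3.07 and 4.54 CPM in day 3 R26WT mice and 8.27, 4.72, 4.10 and 4.58 CPM in day 3 R26TIR1(F74G) mice. Its day 7 values were 4.13, 2.62 and 5.40 CPM against 5.03, 5.13 and 4.81 CPM. The R26TIR1(F74G) mice lay mostly above the controls but overlapped them on both days, and the log2 difference of 0.47 ± 0.15 (SE, unadjusted p = 0.00277) had an adjusted p of 0.492. Without day 3 R26TIR1(F74G) replicate 1, which stood far above its group, it was 0.37.
The member window with the smallest p on day 7 was also in Jak1, 77770 bp downstream of the start at chr4:101187412-101187613. Controls had 32.3, 24.1 and 18.4 CPM there on day 7 and R26TIR1(F74G) mice 17.2, 19.1 and 20.4 CPM. A single control stood high and the lowest control lay within the other group. The day 7 log2 fold change was −0.43 ± 0.14 (SE, unadjusted p = 0.00368, adjusted p = 0.682), ranged from −0.57 without R26WT replicate 3 to −0.20 without R26WT replicate 1, and was −0.02 on day 3. Without R26WT replicate 3, the smaller library, its adjusted p was 0.0869.

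Jak2 serves receptors of hematopoietic cytokines, IFN-gamma and IL-12. At the Jak2 start, chr19:29251532-29251733, R26WT mice had 17.7, 18.1, 18.8 and 25.3 CPM and R26TIR1(F74G) mice 21.2, 16.5, 14.9 and 17.1 CPM on day 3. Day 7 brought 23.1, 20.1 and 16.2 CPM in controls and 16.8, 20.4 and 23.0 CPM in R26TIR1(F74G) mice. The genotypes overlapped throughout, with a log2 fold change of −0.12 over both days (95% interval −0.33 to 0.08, unadjusted p = 0.220, adjusted p = 0.881). It was −0.04 without day 3 R26WT replicate 4, the highest control, and −0.18 without day 7 R26WT replicate 3 or R26TIR1(F74G) replicate 3. Upstream of Jak2, in a cluster of weak windows outside any gene, the 2 windows that follow had low counts. At chr19:29194103-29194304 the day 3 values were 1.64, 1.39, 1.43 and 1.53 CPM in R26WT and 1.26, 0.751, 0.969 and 1.21 CPM in R26TIR1(F74G) mice. Its day 7 values were 1.42, 1.57 and 2.40 CPM against 0.909, 1.31 and 1.16 CPM. All 7 R26TIR1(F74G) mice lay below all 7 controls at this window, with a log2 fold change of −0.59 ± 0.22 (SE, unadjusted p = 0.0106), yet the mean count was 18.8 reads and the adjusted p was 0.615. A window beside it, chr19:29194474-29194675, had the smallest p of any member on day 3, with 3.98, 2.45, 3.28 and 5.84 CPM in R26WT and 2.16, 2.31, 2.61 and 1.77 CPM in R26TIR1(F74G) mice. The day 3 log2 fold change was −0.81 ± 0.23 (SE, unadjusted p = 0.000944, adjusted p = 0.442), although the lowest control lay within the other group, and on day 7 it was 0.00. The day 3 value was −0.52 without R26WT replicate 4, the highest control.

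Jak3 pairs with the common gamma chain and is largely restricted to blood cells, and its start had the lowest day 3 log2 fold change of the 3 kinase starts. At the Jak3 start, chr8:71676380-71676581, R26WT mice had 16.3, 17.5, 16.1 and 19.2 CPM and R26TIR1(F74G) mice 11.5, 15.8, 11.2 and 12.7 CPM on day 3. On day 7 the controls had 14.2, 15.7 and 9.45 CPM and R26TIR1(F74G) mice 14, 11.6 and 15.7 CPM. The day 3 groups did not overlap and the day 7 groups did. The log2 fold change was −0.42 ± 0.13 on day 3 (SE, unadjusted p = 0.00273, adjusted p = 0.479) and 0.02 ± 0.15 on day 7, and the difference between days, 0.44 ± 0.21, had an unadjusted p of 0.0359 and an adjusted p of 0.781. The other 7 Jak3 windows lay within 1 kb of the start and had unadjusted p over 0.05 in the comparison over both days.

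**Figure D3:**
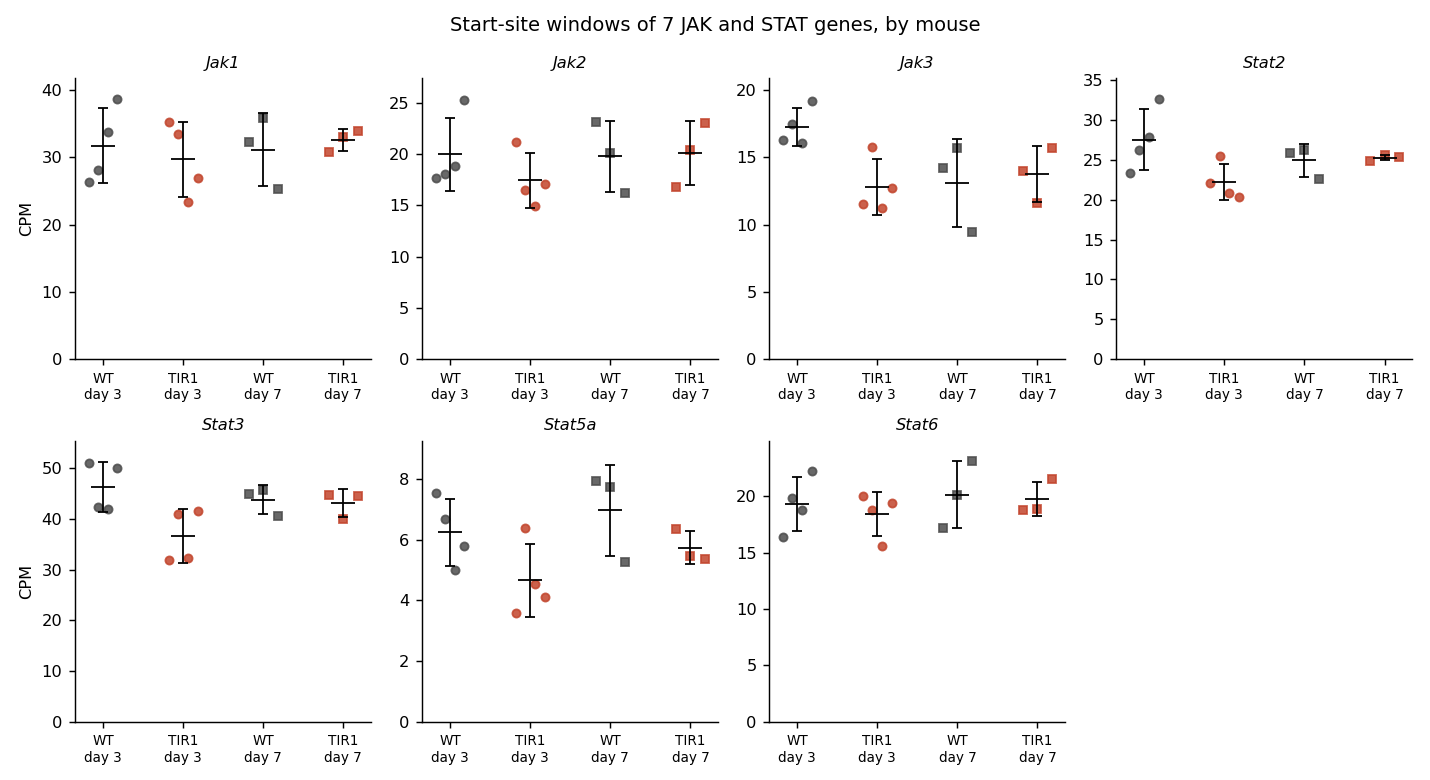
CPM of the start-site window of 7 genes in each mouse, by genotype and day, from 0 on each gene's own scale, with circles for day 3, squares for day 7 and black bars for the mean and SD. The day 3 groups are apart at Jak3 and Stat3, overlap at the other 5 genes, and overlap at all 7 on day 7.

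Among the STAT genes Stat2, which joins the transcription complex of type I interferon, had the fewest windows. At the Stat2 start, chr10:128270318-128270519, R26WT mice had 23.4, 26.3, 27.9 and 32.6 CPM and R26TIR1(F74G) mice 22.1, 25.5, 20.9 and 20.4 CPM on day 3. On day 7 it measured 25.9, 26.3 and 22.6 CPM in controls and 24.9, 25.6 and 25.4 CPM in R26TIR1(F74G) mice. The genotypes overlapped on both days, and the log2 fold change was −0.31 ± 0.12 on day 3 (SE, unadjusted p = 0.0155, adjusted p = 0.576) and 0.01 ± 0.12 on day 7. The window covers the GC boxes and the Runx motif of the printed Stat2 promoter and starts downstream of the interferon element, and its centre falls within the annotated span of the neighbouring gene Apof.

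Stat3 acts downstream of IL-6, IL-10 and IL-21, and its start was the most accessible member window of all. At the Stat3 start, chr11:100939544-100939745, R26WT mice had 51.1, 42.3, 41.9 and 50.0 CPM and R26TIR1(F74G) mice 32, 41.0, 32.2 and 41.5 CPM on day 3. On day 7 it measured 45.0, 45.8 and 40.5 CPM in controls and 44.8, 40.0 and 44.6 CPM in R26TIR1(F74G) mice. On day 3 the highest R26TIR1(F74G) mouse lay just under the lowest control, and on day 7 the groups overlapped. The log2 fold change was −0.33 ± 0.12 on day 3 (SE, unadjusted p = 0.00646, adjusted p = 0.525) and −0.03 ± 0.11 on day 7, and the difference between days had an unadjusted p of 0.0795 and an adjusted p of 0.815. The Stat3 window of smallest p over both days, chr11:100947632-100947833 upstream of the gene, was faint, with 15.1 reads on average and a log2 fold change of −0.71 ± 0.27 (SE, unadjusted p = 0.0116, adjusted p = 0.620).

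Stat4, the factor of the IL-12 response and of Th1 cells, had all of its 31 windows within the gene and none at the outermost start. At the Stat4 intragenic window chr1:52019711-52019912, its most accessible, R26WT mice had 10.7, 12.6, 12.9 and 13 CPM and R26TIR1(F74G) mice 10.6, 13.6, 11.2 and 9.01 CPM on day 3. Its day 7 values were 14.3, 10.8 and 11.7 CPM against 10.4, 10.7 and 11.1 CPM. The genotypes overlapped on both days, and the log2 fold change over both days was −0.16 (95% interval −0.37 to 0.04, unadjusted p = 0.117, adjusted p = 0.825). Only chr1:52020320-52020521, with 1.96 CPM on average, had an unadjusted p under 0.05, with −0.38 ± 0.19 (SE, unadjusted p = 0.0499, adjusted p = 0.743).

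Stat5a and Stat5b, the closely related factors of the IL-2 response, had 15 of 19 and 20 of 22 windows below 0 on the log2 scale over both days. How reads that match both genes were treated is not given in the sources used here. The Stat5a start-site window, chr11:100859842-100860043, lay 592 bp downstream of the outermost start. There R26WT mice had 7.53, 6.68, 4.99 and 5.78 CPM and R26TIR1(F74G) mice 3.60, 6.38, 4.55 and 4.10 CPM on day 3. The day 7 values of this window were 7.95, 7.73 and 5.25 CPM against 6.36, 5.48 and 5.36 CPM. The genotypes overlapped on both days, with a log2 fold change over both days of −0.34 ± 0.13 (SE, unadjusted p = 0.00971, adjusted p = 0.609). At the second Stat5a start, chr11:100860332-100860533, whose promoter is printed above, the day 3 values were 29.9, 25.1, 30.2 and 33.2 CPM in R26WT and 32.7, 25.2, 20.8 and 25 CPM in R26TIR1(F74G) mice. On day 7 it measured 27.3, 30.7 and 25.3 CPM against 28.3, 23.2 and 25.3 CPM. The groups overlapped, and the log2 fold change over both days was −0.18 ± 0.09 (SE, unadjusted p = 0.0577, adjusted p = 0.756). The Stat5a window of smallest p lay inside Stat3, at chr11:100893507-100893708, with a mean of 7.15 ± 1.01 CPM in 7 R26WT and 5.72 ± 0.998 CPM in 7 R26TIR1(F74G) mice. Its log2 fold change was −0.35 ± 0.12 (SE, unadjusted p = 0.00529, adjusted p = 0.554).

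The Stat5b gene held the smallest p of any member over both days, 40508 bp downstream of its start at chr11:100818395-100818596. At this Stat5b window R26WT mice had 8.14, 6.42, 7.72 and 8.38 CPM and R26TIR1(F74G) mice 7.01, 5.58, 4.17 and 6.43 CPM on day 3. Its day 7 values were 7.75, 8.02 and 6.90 CPM against 4.65, 5.66 and 6.07 CPM. The day 7 groups did not overlap, and on day 3 the lowest control lay below the 2 highest R26TIR1(F74G) mice. The log2 fold change was −0.46 ± 0.12 over both days (SE, 95% interval −0.70 to −0.22, unadjusted p = 0.000286), −0.44 on day 3 and −0.49 on day 7. Its adjusted p was 0.322 and reached 0.137 at the lowest when a mouse was left out. The Stat5b window chr11:100850443-100850644 was singled out because it overlaps the printed promoter, the more upstream of the gene's RefSeq promoters. Its means were 16.0 ± 1.54 CPM in 7 R26WT and 13.4 ± 1.34 CPM in 7 R26TIR1(F74G) mice. The log2 fold change there was −0.25 ± 0.10 (SE, unadjusted p = 0.0103, adjusted p = 0.613). At chr11:100831436-100831637, named because the mice did not overlap, R26WT mice had 1.73, 2.05, 2.19 and 2.01 CPM on day 3 and 1.87, 1.74 and 1.80 CPM on day 7. R26TIR1(F74G) mice had 1.44, 1.23, 1.34 and 0.885 CPM and then 1.34, 1.25 and 1.72 CPM at the same window. All R26TIR1(F74G) mice lay below all controls, with −0.54 ± 0.20 (SE, unadjusted p = 0.00793, adjusted p = 0.587) at a mean count of 23.4 reads.

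Stat6, the factor of IL-4 signalling, had 11 windows, none farther than 1048 bp from its start. At the Stat6 start, chr10:127642842-127643043, R26WT mice had 16.4, 19.8, 18.8 and 22.2 CPM and R26TIR1(F74G) mice 20, 18.8, 15.6 and 19.4 CPM on day 3. On day 7 it measured 17.2, 20.1 and 23.1 CPM against 18.8, 18.9 and 21.5 CPM. The groups overlapped on both days, and the log2 fold change over both days was −0.05 (95% interval −0.24 to 0.14, unadjusted p = 0.598, adjusted p = 0.964). All 11 Stat6 windows, 6 of which overlap another and share reads, were below 0 on day 3 and 2 of 11 on day 7. All 11 averaged 50 reads or more, and of all windows of that depth 67.4% were below 0 on day 3 and 44.4% on day 7. The window of smallest p, chr10:127643180-127643381, had a log2 fold change of −0.44 ± 0.15 on day 3 (SE, unadjusted p = 0.00436, adjusted p = 0.512) and 0.06 ± 0.15 on day 7, and the difference between days had an unadjusted p of 0.0229 and an adjusted p of 0.761.

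**Figure D4:**
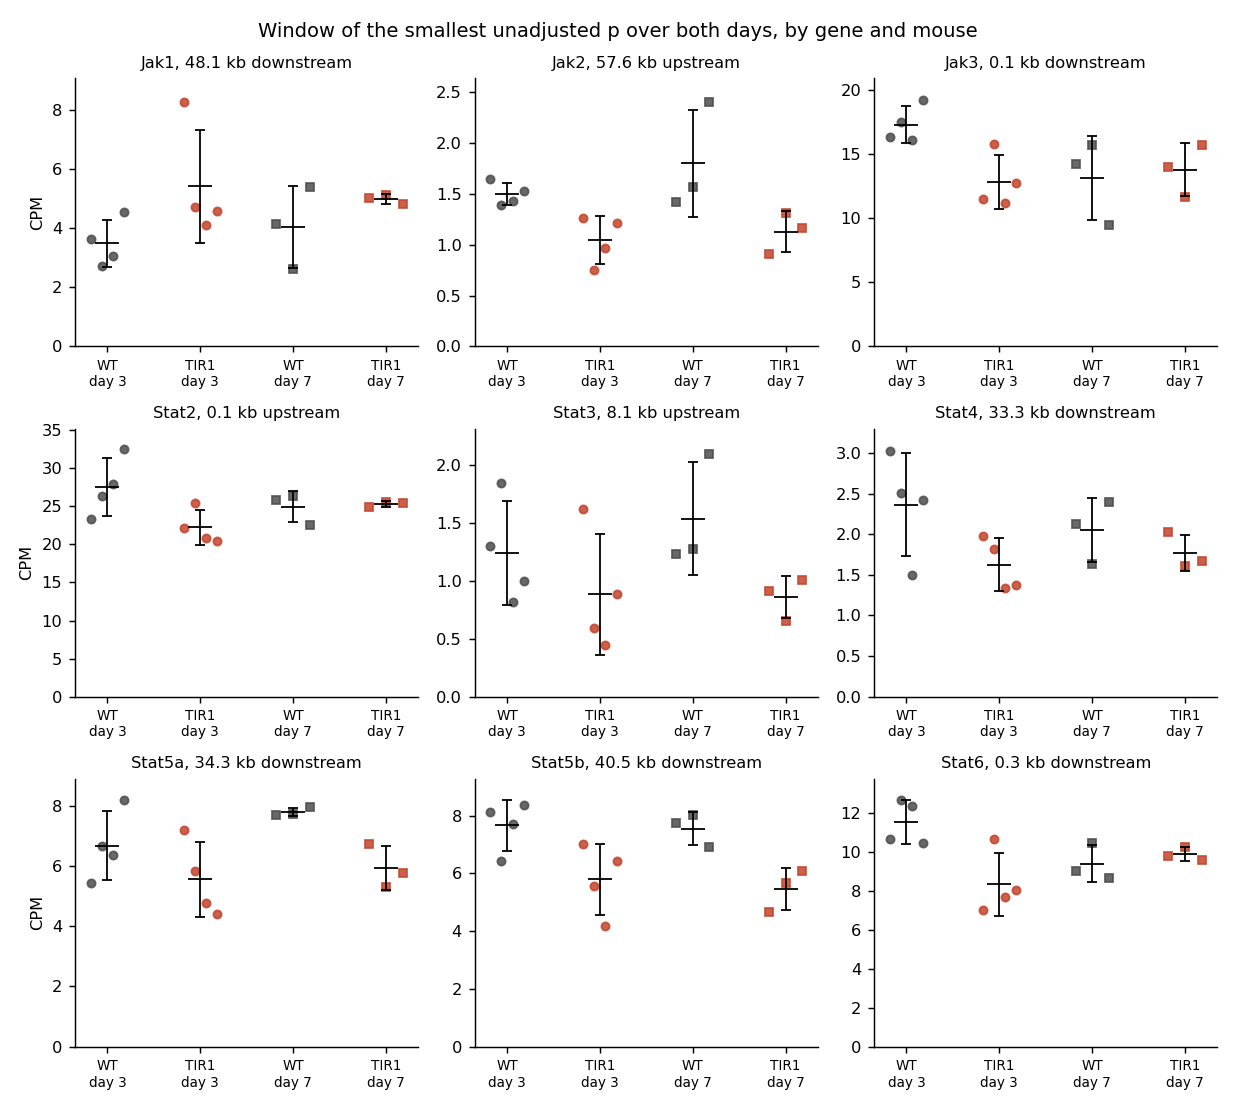
CPM in each mouse at the window of smallest unadjusted p over both days of each gene, by genotype and day, from 0, with the mean and SD as black bars; distances are from the gene's start site. The R26TIR1(F74G) mice lie below all controls at the Jak2 window, below the controls of day 7 at the Stat3, Stat5a and Stat5b windows and of day 3 at the Jak3 window, and mostly above them at the Jak1 window.

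Summing the counts of all windows of a gene gave mean totals per library from 453 for Jak3 to 5326 for Jak1, and with them smaller errors. Reads shared by overlapping windows entered these totals more than once. No summed locus was called in any comparison by edgeR or by DESeq2. Over both days all 6 STAT loci and 2 of 3 JAK loci were below 0, with log2 fold changes of −0.15 ± 0.07 for Stat5a (SE, unadjusted p = 0.0316, adjusted p = 0.333), −0.13 ± 0.06 for Stat2 (unadjusted p = 0.0460, adjusted p = 0.365) and −0.12 ± 0.05 for Stat5b (unadjusted p = 0.0272, adjusted p = 0.321). The others were −0.11 for Stat3, −0.08 for Jak2, −0.06 for Jak3, −0.05 for Stat4, −0.03 for Stat6 and 0.01 for Jak1. These 3 of 9 with an unadjusted p under 0.05 stand beside 13.2% of all 15878 loci, of which 0.0189% were called. All 9 intervals over both days lay between −0.28 and 0.12, so no locus had an interval that reached a 1.5-fold change.
On day 3 again 3 loci of 9 had an unadjusted p under 0.05, Stat2, Stat3 and Jak2, beside 16.1% of all loci, of which 0.107% were called. The Stat2 locus had 39.0, 41.4, 40.2 and 46.1 CPM in R26WT and 32, 38.0, 30.3 and 34.5 CPM in R26TIR1(F74G) mice on day 3, without overlap, a log2 fold change of −0.24 ± 0.09 (SE, unadjusted p = 0.0117, adjusted p = 0.203). The Stat3 locus had 154, 135, 132 and 153 CPM against 131, 130, 103 and 128 CPM, also without overlap, with −0.17 ± 0.07 (SE, unadjusted p = 0.0318, adjusted p = 0.273). On day 7 only Stat5b had an unadjusted p under 0.05, 1 of 9 beside 7.36% of all loci, of which 0% were called. The Stat5b locus had 128, 125 and 129 CPM in R26WT and 113, 110 and 116 CPM in R26TIR1(F74G) mice on day 7, without overlap. Its log2 fold change was −0.16 ± 0.06 (SE, unadjusted p = 0.0185, adjusted p = 0.640). The share of all loci whose mice did not overlap was not counted on either day. DESeq2 had the same numbers of member loci at an unadjusted p under 0.05, 3 over both days, 3 on day 3 and 1 on day 7, beside 2225, 2497 and 1028 of all loci. It called 196 of all loci over both days, 188 on day 3 and 14 on day 7.

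**Figure D5:**
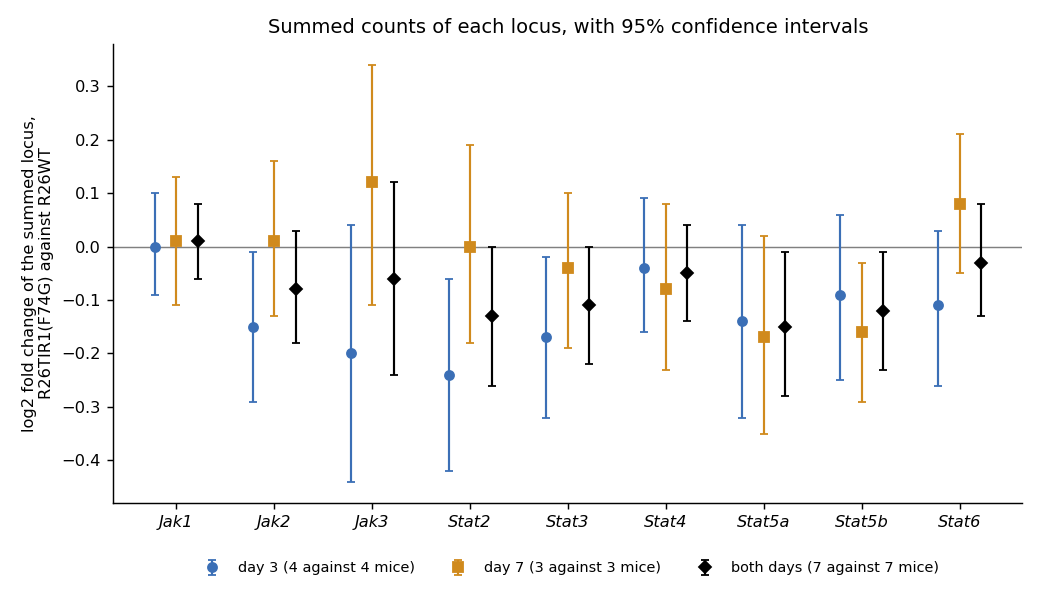
Log2 fold change of the summed count of each gene's windows with its 95% confidence interval, by gene, for day 3, day 7 and both days. Every interval of Jak1 spans 0, the day 3 intervals of Jak2, Stat2 and Stat3 the day 7 interval of Stat5b and the intervals of Stat5a and Stat5b over both days lie below it, and no interval leaves the range from −0.44 to 0.34.

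Between days, the genotype difference itself differed at 0 member windows (edgeR, adjusted p under 0.05, 0% of all windows), with 21 of 250 at an unadjusted p under 0.05 beside 6.32% of all. DESeq2 called 0 windows there and had 16 members and 11424 of all windows at that p. In R26WT mice day 7 differed from day 3 at 0 of 247 member windows, where 0.00300% of all were called, and 11 had an unadjusted p under 0.05 beside 5.25% of all. In R26TIR1(F74G) mice the count was 0 of 250, beside 0% of all, and 18 had an unadjusted p under 0.05 beside 6.96% of all. DESeq2 called 0 members in both, beside 0 of all 232991 windows in R26WT and 2 of all 239163 in R26TIR1(F74G) mice. At that unadjusted p it had 6 and 9 members, beside 6181 and 9991 of all windows. Day and any handling that went with it cannot be told apart.

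The rest of the pathway was described over lists of genes. Of 624 windows of 19 cytokine receptor chain genes, 397 windows of 17 genes of inhibitors and phosphatases such as the SOCS family, and 349 windows of 10 target genes such as Bcl2 and Pim1, edgeR called 0 over both days. At an unadjusted p under 0.05, the receptor windows were lower at 38 and higher at 22, the inhibitor windows lower at 37 and higher at 8, and the target windows lower at 33 and higher at 3. As shares these were 6.09% and 3.53%, 9.32% and 2.02%, and 9.46% and 0.860%, beside the 3.57% and 3.16% of all windows and the 6.98% and 2.27% of deeper ones. The median log2 fold changes were −0.04, −0.07 and −0.03, beside −0.09 for the 250 JAK and STAT windows and −0.03 for the windows averaging 50 reads or more. No summed locus of the 3 lists was called by edgeR on day 3, on day 7 or over both days, and over both days 5 of 19 receptor loci, 6 of 17 inhibitor loci and 3 of 10 target loci had an unadjusted p under 0.05, beside 13.2% of all loci.

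With the 4 group means removed, the summed log2 CPM of each locus was set against that of 11612 genes with at least 5 windows over the 14 libraries. The gene most like Stat5b was Ccr7 (Pearson r = 0.98), most like Stat3 was Cyth1 (r = 0.97), most like Jak1 was Diaph1 (r = 0.96), and most like Jak3 was Fam53c (r = 0.95). For Stat4 it was Eef1akmt2 (r = 0.95), for Stat5a Cyb5d1 (r = 0.94), for Stat6 Rpgr (r = 0.93) and for Jak2 Chuk (r = 0.86). Stat2 had too few windows. Among the members themselves Stat3 and Stat5a were most alike (r = 0.84), followed by Jak1 and Stat4 (r = 0.78). These are the highest values of many, over libraries that share depth and the share of reads in windows, and describe these libraries only.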

How the data were processed

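Counts of reads per window were deposited by the authors as 1 table of 14 libraries on mm10 (GRCm38). The authors used Bowtie2 for alignment and MACS2 for peaks, of which the reproducible were kept, and featureCounts at their summits, which yields overlapping windows. RefSeq start sites were used to assign windows; 459 of 21900 protein-coding genes had no strand and were left out. Raw counts were tested with edgeR 4.0.16 (R 4.3.3; TMM normalization, quasi-likelihood, mean count of at least 10) over all windows, or over all genes after summing, with p adjusted by Benjamini-Hochberg and called under 0.05; DESeq2 1.42.0 was an alternative. CPM used TMM library sizes over all 14 libraries. SE and 95% intervals come from the edgeR fit and give the uncertainty of the estimated log2 fold change. The spread between mice is given by the SD. The steps were tested on simulated data. Groups came from the labels; alternatives were other scaling, filters, models and leaving out each mouse.

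For each gene the text names the start-site window (highest mean count within 1 kb of the start), the most accessible window and the window of smallest p over both days, and the members of smallest p on day 3 and day 7; exceptions are said where they stand. The genes, lists and tests were chosen with earlier results of these data known. Replicate numbers were not treated as pairs: same-numbered mice had correlations of deviations from their group means between −0.0787 and 0.0652. Such correlations cannot show whether mice shared a litter or handling. The paper used littermates as controls unless it stated otherwise. No GRCm38 genome sequence was used here beyond the RefSeq promoters.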

Additional observations from a re-analysis of the deposited data

Results flagged for a closer look

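In 56 groups of 4 mice examined, 3 mice stood apart from their group by Dixon's criterion, where chance gives about 1 in 20 groups, or 2.8. Day 3 R26TIR1(F74G) replicate 1, the smallest library, had 8.27 CPM at the Jak1 window chr4:101217033-101217234, where the other 3 mice had 4.10 to 4.72 CPM. Day 3 R26WT replicate 4 had 25.3 CPM at the Jak2 start, with 17.7 to 18.8 CPM in the others. Day 3 R26TIR1(F74G) replicate 3 had 103 CPM over the summed Stat3 locus, with 128 to 131 CPM in the others.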

How the results depend on the processing

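All 9 counts of called members, over windows and over summed loci, were 0 and stayed at 0 in all 161 alternative counts, without each mouse too. Their smallest adjusted p under any alternative lay between 0.0869 and 0.427. Of 534 values of named windows and loci under other settings 15 changed sign, and of 672 values without a mouse 26 did. The log2 fold change of each of these results was at most 0.04 in size, far inside its interval, and the cause was not tested.

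With only windows averaging 50 reads or more, the day 7 value was −0.01 at the Jak3 start and −0.02 at the Stat2 start, and the day 3 value at Jak1 chr4:101187412-101187613 was 0.06. With the prefix of the mouse names in the model, the day 7 value was −0.08 at the Jak3 start and −0.04 at the Jak2 locus. On day 7 this term amounts to leaving out R26TIR1(F74G) replicate 3, the only mouse of prefix E. Scaling by total counts gave 0.03 at that Jak1 window on day 3, and on day 7 0.00 at the Jak1 locus and −0.01 at the Stat2 locus. DESeq2 size factors gave 0.00 at Jak2 chr19:29194474-29194675 on day 7. Without overlapping windows the Jak1 locus was −0.02 on day 3 and −0.01 over both days. With windows within 20 kb it was −0.02 on day 3, the Stat2 locus 0.00 on day 7 and the Stat4 locus 0.02 on day 3, and with windows within 1 kb the Jak1 locus was 0.00 on day 3.

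Leaving out 1 mouse at a time, the values ran from −0.09 to 0.02 at the Jak1 start over both days, from −0.12 to 0.17 at the Jak3 start and from −0.04 to 0.05 at the Stat2 start on day 7. They ran from −0.12 to 0.06 at Jak1 chr4:101187412-101187613 on day 3 and from −0.11 to 0.10 at Jak2 chr19:29194474-29194675 on day 7. Over loci they ran from −0.02 to 0.07 on day 7, −0.02 to 0.02 on day 3 and −0.01 to 0.03 over both days for Jak1, and on day 7 from −0.04 to 0.05 for Jak2, −0.04 to 0.04 for Stat2 and −0.10 to 0.01 for Stat3. The Stat6 locus ran from −0.05 to 0.00 over both days.

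The replicate block called 0 members in each of its 6 comparisons, and its calls over all windows and loci are not given here. The labels do not say whether replicate numbers pair mice. The median SE of a member's log2 fold change was 0.24 on day 7, with 6 mice, and 0.17 over both days, with 14, so shifts as small as the STAT median could not be seen in single windows. Only 196 of 250 day 7 intervals lay within a 2-fold change.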
